A study of Mus musculus with 18 samples.

Results

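Desmin (Des), reelin (Reln), Pdgfra, Pdgfrb, Rgs5, alpha smooth muscle actin (Acta2), transgelin (Tagln), Hand2, Ngfr and Hgf are genes in common use as markers of hepatic stellate cells and of pericytes. They were chosen by name as known markers, with earlier results of these livers known, and are 10 of the 38924 genes of the male count table and of the 23337 genes of the female count table. All 10 were found in both tables. The data are liver RNA-seq libraries of 18 individual mice (3 in each of 6 groups) at 8 weeks of age, fed on chow in which fat supplied 45% of the calories. In the C57BL6J strain, LDP mice had low-dose penicillin from birth and control mice had no antibiotic, both were weaned at week 4, and the high-fat diet began at week 6. LDP males 8, 10 and 11 were compared with control males 5, 6 and 7, and LDP females 39, 52 and 54 with control females 29, 30 and 32. Germ-free Swiss Webster females were colonised at week 3 with microbiota of LDP mice (recipients 2, 5 and 8) or of control mice (recipients 1, 3 and 7), and were given no antibiotic themselves. The labels name no cage, litter, microbiota donor or library batch, so mice that shared one would still count as separate replicates. The recipients differ from the other females in strain and in being germ-free before transfer, so only the contrast within them is read.

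Hepatic stellate cells lie between the hepatocytes and the sinusoidal endothelium, store vitamin A and, after injury, can turn into contractile, collagen-producing myofibroblasts. Pericytes wrap small vessels and share much of this gene set with stellate cells and with vascular smooth muscle. Des encodes an intermediate filament of muscle and stellate cells. Reln and Hgf encode secreted proteins, of which HGF acts on hepatocytes through the receptor Met. Pdgfra, Pdgfrb and Ngfr encode receptors, the first pair for platelet-derived growth factors and Ngfr for neurotrophins. Rgs5 encodes an inhibitor of G protein signalling and is a classic pericyte gene. Acta2 and Tagln encode contractile proteins of smooth muscle and myofibroblasts, and Hand2 encodes a transcription factor of mesenchymal cells.

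Sequence at the start of the gene is shown for Acta2 and Hand2, the members whose recipient groups did not overlap, and for Ngfr, one of those whose female groups did not overlap. All lines read 5′ to 3′ on the gene's strand, from RefSeq on GRCm38.p6. RefSeq places the Acta2 start at 34255373 on chromosome 19, while GENCODE M21 begins the gene further upstream, at 34255590, so for Acta2 only the 30 bases around each CArG-like box are shown, at chr19:34255438-34255467 and chr19:34255388-34255417 on the minus strand. By GENCODE both boxes lie inside the gene model. For Hand2 the 250 bases before the start are shown, at chr8:57320733-57320982 on the plus strand. For Ngfr the 213 bases before the GENCODE start are shown, at chr11:95587736-95587948 on the minus strand. Capitals mark the boxes in Acta2, and GGGCGG or its reverse complement in Hand2 and Ngfr.
Acta2 upstream box: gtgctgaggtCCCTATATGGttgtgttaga
Acta2 downstream box: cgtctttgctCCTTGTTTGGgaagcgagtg
Hand2: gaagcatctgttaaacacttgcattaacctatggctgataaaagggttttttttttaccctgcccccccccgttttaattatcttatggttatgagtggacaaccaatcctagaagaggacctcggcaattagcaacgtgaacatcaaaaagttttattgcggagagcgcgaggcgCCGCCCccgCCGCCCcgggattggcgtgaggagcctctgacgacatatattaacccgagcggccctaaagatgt
Ngfr: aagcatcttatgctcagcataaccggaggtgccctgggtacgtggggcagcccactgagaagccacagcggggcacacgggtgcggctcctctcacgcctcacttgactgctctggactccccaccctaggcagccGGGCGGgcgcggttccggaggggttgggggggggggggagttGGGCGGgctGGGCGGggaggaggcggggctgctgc
A CArG box is the sequence class bound by serum response factor, which with myocardin-type cofactors drives smooth muscle genes. The search took CC, then 6 bases with at least 5 A or T, then GG, a pattern that reads alike on both strands, in windows of 300 bases that run from 250 before to 50 after a start. Of the 8 members with a window in use, Acta2 held 2 such boxes, beginning at -84 and -34 from the RefSeq start, and the other 7 held 0. No window was searched for Tagln or Pdgfrb, so nothing is said of boxes in them. Among 32851 windows of all genes, 9.98% held at least 1 box and 0.822% held 2 or more. GGGCGG on either strand occurred 6 times in the Reln window, 4 times in that of Ngfr, 2 times each in those of Des and Hand2, and 0 times in those of Pdgfra, Rgs5, Acta2 and Hgf. It occurred at least once in 35.7% of all windows. These matches describe letters in the windows and were not tied to any value below.

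Counts per library ran from 70336366 to 74418889 in males, 17937005 to 25703227 in LDP and control females and 18723235 to 28646168 in recipients. Males and females were counted in separate tables, so levels are never compared between them. Every member had counts in every library: the lowest was 4 for Acta2 in LDP-microbiota recipient 5, and the highest 10354 for Reln in LDP male 10. Lrat, which makes the stored retinyl esters of stellate cells, was counted in all 18 livers, at a mean of 26.4 CPM (counts scaled to the size of the library) in control males, 26.6 in control females and 16.8 in control-microbiota recipients. In bulk liver, fewer cells of a type and less RNA per cell cannot be told apart. Strand was not stated, and a gene model on the opposite strand overlaps 5 of the 10 members (Des, Reln, Pdgfra, Tagln and Hand2), so reads of those neighbours may be counted with them. LDP male 11 stands apart from the other males in these genes, and the members' changes in males are given with and without it.

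Levels of different members were compared per length, in CPM per kilobase, with the gene lengths of the male table. These ran from 1586 bases for Tagln to 19834 for Reln. The order of the members depends on them, and other lengths were not tried. In control males Rgs5 had the highest level, 14.0 ± 1.25 CPM per kilobase (SD, n = 3), followed by Hgf at 6.59 ± 0.580 and Reln at 5.18 ± 0.274, with no overlap between neighbours in this order. Tagln (3.78 ± 0.347) and Hand2 (3.15 ± 0.517) came next and overlapped each other. Pdgfrb (1.69), Acta2 (1.47), Pdgfra (1.31), Ngfr (1.27) and Des (1.20) formed the lowest tier, with each overlapping its neighbour. The secreted factors and Rgs5 stood above the receptors and the filament protein in these livers. In control females, where the same lengths were applied, Hgf (6.32 ± 1.16), Reln (5.02 ± 1.19), Rgs5 (4.54 ± 1.01), Hand2 (3.47 ± 0.265) and Tagln (3.38 ± 0.293) overlapped their neighbours and stood clear of Pdgfrb (1.46 ± 0.309), the highest of the other 5. In control-microbiota recipients Hgf, Rgs5 and Reln (6.11, 5.77 and 4.82) stood above Hand2 and Tagln (2.94 and 2.91), and Ngfr (1.71) led the remainder. In LDP-microbiota recipients Acta2 was the lowest member, at 0.333 CPM per kilobase, below Pdgfra (1.22 ± 0.232) with no overlap.

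**Figure D1:**
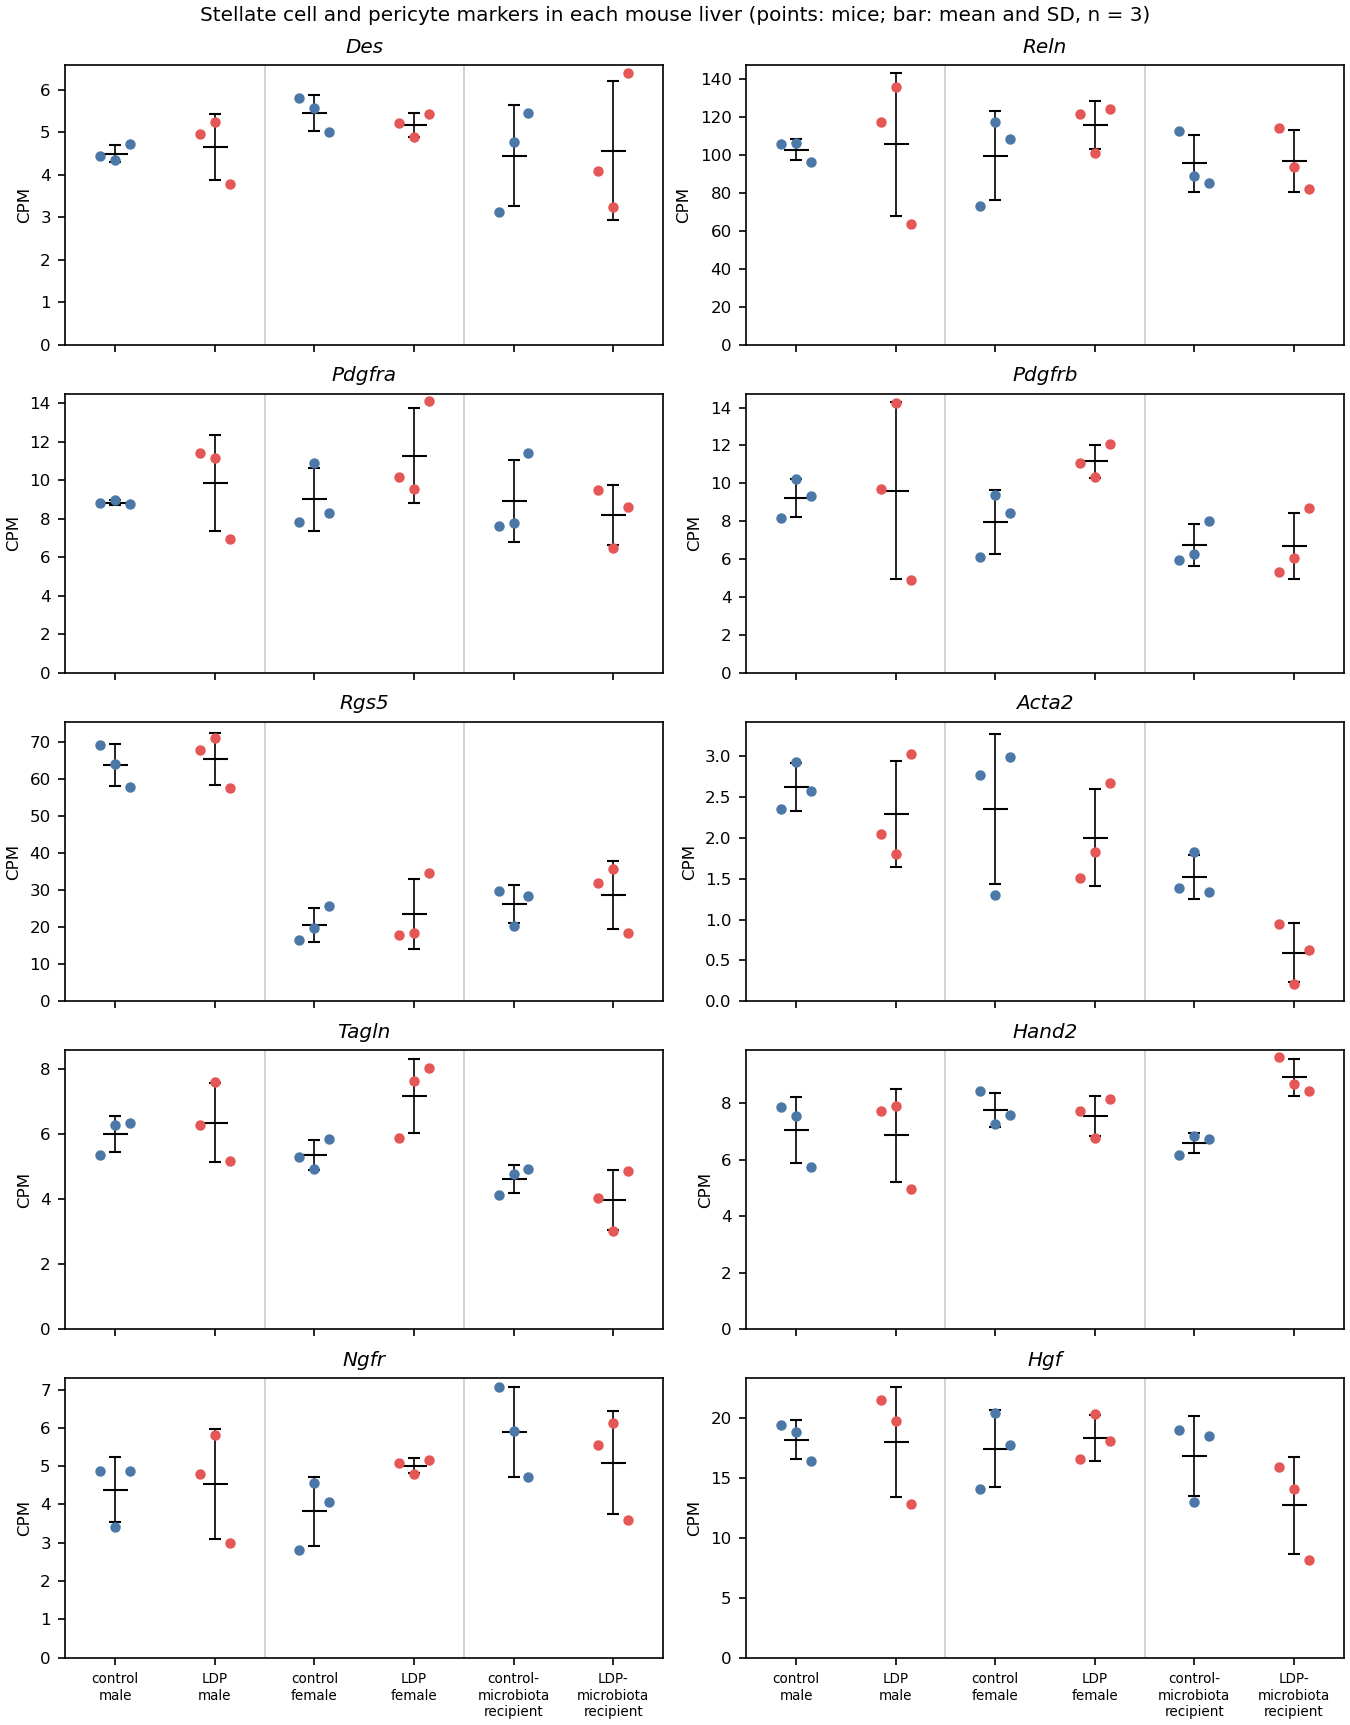
Level of each of the 10 markers in every mouse, in TMM-scaled CPM on an axis that starts at 0. Each point is 1 mouse and the bars give the mean and SD of 3 mice; males, treated females and recipients are separated by lines and are compared only within a block. LDP male 11 is the lowest male in 9 of 10 panels, and in recipients the points of the 2 groups are separate for Acta2 and Hand2.

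In males, LDP from birth was set against no antibiotic, which asks what the drug does to these markers in the male liver. None of the 10 passed edgeR's quasi-likelihood test at an adjusted p of 0.05, and 0 had an unadjusted p under 0.05. Of the 15438 genes tested, 0% passed as higher and 0.00648% as lower, and 3.17% and 2.06% had an unadjusted p under 0.05. In DESeq2, 0.162% and 0.0171% of 23391 genes passed, with 0 members. In 0 of 10 members were the groups without overlap, against 5.69% of all genes higher and 4.84% lower. Log2 changes, LDP minus control, ran from -0.20 (Acta2) to 0.15 (Pdgfra), with a median of 0.04 and 7 of 10 above 0, beside a median of 0.00 and 50.7% above and 49.3% below 0 over all genes.

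What varied was the mice within the LDP group. Reln, the glycoprotein secreted by stellate cells, was at 117.6, 136.0 and 63.5 CPM in LDP males 8, 10 and 11, and at 105.8, 106.2 and 96.6 in control males 5, 6 and 7. Pdgfrb, the receptor that drives stellate cell proliferation, was at 9.70, 14.2 and 4.91 CPM in LDP males and at 8.19, 10.2 and 9.31 in controls. In both, LDP male 10 was the highest and LDP male 11 the lowest of the 6, with the controls between them. The SD was 37.7 CPM over LDP males and 5.43 over controls for Reln, and 4.66 against 1.01 for Pdgfrb. Their log2 changes were 0.04 (SE 0.279, edgeR adjusted p 0.989) and 0.06 (SE 0.374, adjusted p 0.986). Pdgfra, the sister receptor, was at 11.4, 11.1 and 6.97 CPM in LDP males and 8.81, 8.96 and 8.74 in controls, so the LDP males lay on both sides of a narrow control range. Hgf was at 21.4, 19.7 and 12.8 CPM against 19.4, 18.8 and 16.4, again with LDP male 11 the lowest.

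LDP male 11 was the lowest of the 6 males in 9 of 10 members, and LDP male 10 the highest in 7. In Pdgfra and Hgf LDP male 8 was the highest instead. Acta2 ran the other way: it was highest in LDP male 11 (3.03 CPM) and lowest in LDP male 10 (1.80), with 2.05 in LDP male 8 and 2.36, 2.93 and 2.58 in controls. Over the 10 members the mean log2 deviation from the control mean was 0.11, 0.22 and -0.39 in LDP males 8, 10 and 11, and -0.04 to 0.02 in the controls. The members' median change was -0.08 without LDP male 10, with 1 of 10 above 0, and 0.20 without LDP male 11, with 9 of 10 above 0. Des (3.78 to 5.24 CPM in LDP males, 4.34 to 4.72 in controls), Rgs5 (57.6 to 71.1 against 57.8 to 69.2), Tagln (6.35 ± 1.21 against 6.00 ± 0.550), Hand2 (6.86 ± 1.64 against 7.05 ± 1.16) and Ngfr (4.54 ± 1.43 against 4.39 ± 0.846) differed by less than their spread. Without LDP male 11 the log2 changes were 0.35 for Pdgfra, 0.37 for Pdgfrb, 0.30 for Reln, 0.27 for Ngfr, 0.21 for Tagln, 0.18 for Des, 0.18 for Hgf, 0.15 for Hand2, 0.12 for Rgs5 and -0.45 for Acta2. With any 1 mouse left out Pdgfra stayed above 0 (0.04 to 0.35) and Acta2 below (-0.45 to -0.05), while the other 8 took either sign.

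**Figure D2:**
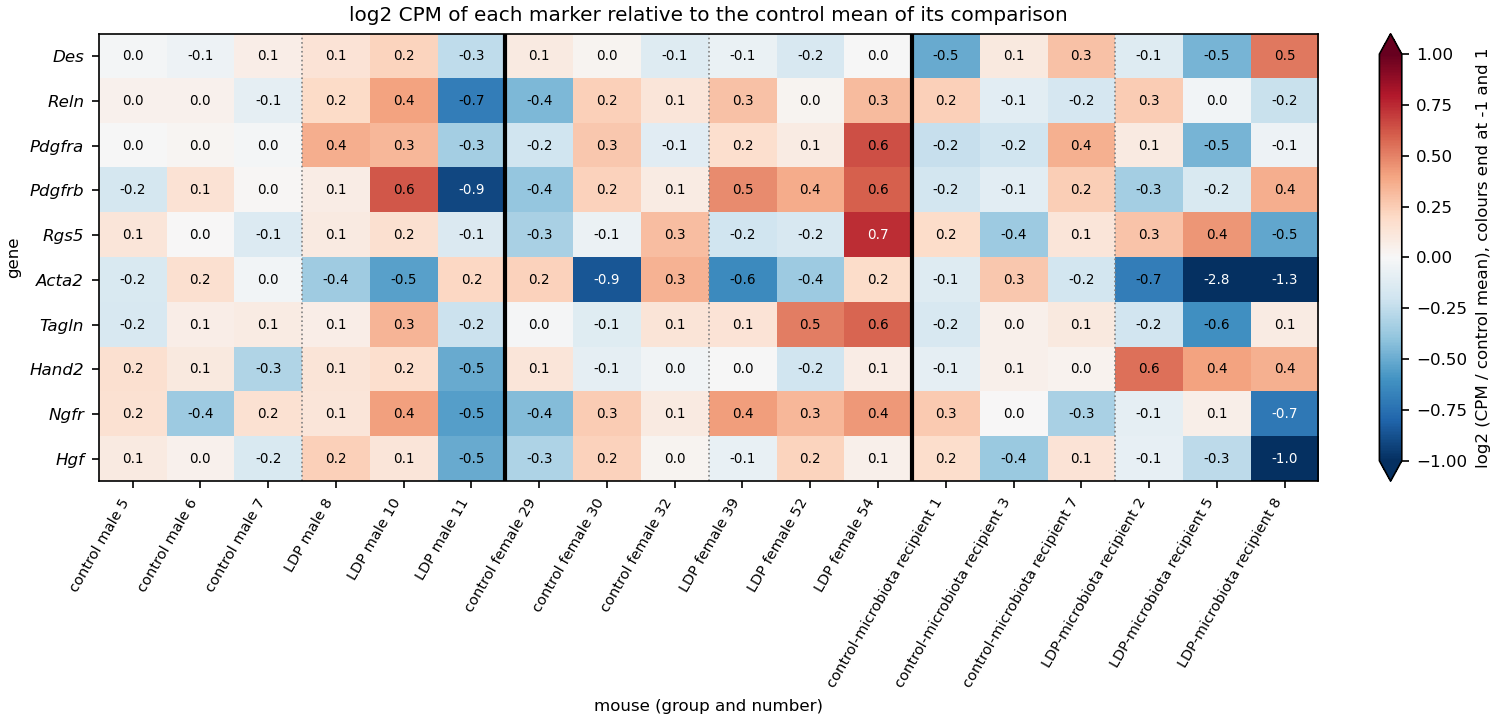
Log2 level of each marker in each mouse relative to the mean of its 3 controls, as a colour and a printed value, with a column per mouse and the comparisons side by side. LDP male 11 is below the control mean in 9 of 10 markers and LDP male 10 above it in 9, while Acta2 goes the other way in both.

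Other stellate cell genes split the LDP males in the same order. Over 17 further genes of quiescent stellate cells, the mean log2 deviation was 0.27, 0.37 and -0.48 in LDP males 8, 10 and 11, and over 19 genes of activation and myofibroblasts -0.07, 0.63 and -0.87. Summed levels of the activation list were 271, 473 and 155 CPM in those mice and 255 to 287 in controls. Without LDP male 11 the quiescent list had a median log2 change of 0.36 and the activation list of 0.37, against 0.13 and 0.12 with it. LDP male 11 was singled out by its low values, so a rise without it follows from that choice. For the members, leaving out LDP male 10 instead took the median below 0, as given above. Neither list had a gene that passed, and at an unadjusted p under 0.05 the quiescent list had 0 of 17 and the activation list 1 of 19. Markers of the mesothelium, the surface lining of the liver, moved with the same mice: all 7 matched were tested, and their sum was 12.05 CPM in LDP male 10, 3.10 in LDP male 11 and 3.32 to 8.27 in controls. Its defining markers Msln (0.345 to 2.19 CPM in LDP males, 0.315 to 1.26 in controls) and Upk3b (0.115 to 2.60 and 0.329 to 1.83) were low but not at 0. Markers of hepatocytes had summed levels of 99930 to 106581 CPM in LDP males against 83778 to 95044 in controls, most of it from albumin (Alb, 76468 against 63522 CPM on average). Of 6 hepatocyte markers 3 were higher and 3 lower, with a median of -0.01, and their mean log2 deviations overlapped (-0.08 to 0.08 in LDP males, -0.07 to 0.04 in controls). All 10 Kupffer cell (resident macrophage) markers stood lower, with sums of 397 to 432 against 462 to 569 CPM. The part of these in the marker values was not tested.

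In females, the same question was asked of LDP females and their controls, and the members leaned upward without any of them passing. Of 10, 7 were higher and 3 lower, with a median log2 change of 0.20 beside 0.00 over all 12914 genes, of which 50.9% were above and 49.1% below 0. At an unadjusted p under 0.05, 2 members were higher, Pdgfrb and Tagln, where 2.69% of all genes were higher and 1.82% lower. In edgeR 0% of genes passed in either direction. In DESeq2, 0.0698% of 17203 genes passed as higher and 0.0116% as lower, with 0 members. The groups did not overlap in 3 of 10 members, all higher in LDP females, against 4.97% of all genes higher and 4.15% lower.

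Pdgfrb was at 11.1, 10.3 and 12.1 CPM in LDP females 39, 52 and 54, and at 6.10, 9.38 and 8.46 in control females 29, 30 and 32. Every LDP female was above every control, a log2 change of 0.48 (SE 0.164, unadjusted p 0.0167, edgeR adjusted p 0.999). Tagln, an actin-binding protein of contractile cells, was at 5.89, 7.63 and 8.02 CPM in LDP females and 5.31, 4.92 and 5.84 in controls. These groups were also separate, though LDP female 39 and control female 32 differed by little, and the log2 change was 0.42 (SE 0.159, unadjusted p 0.0269, edgeR adjusted p 0.999). Ngfr was at 5.09, 4.796 and 5.16 CPM against 2.82, 4.56 and 4.06, a log2 change of 0.39 (SE 0.188, unadjusted p 0.0685, edgeR adjusted p 0.999). The LDP females were alike in Ngfr (SD 0.193 CPM), and control female 29 lay below the other controls. Without that control the log2 change of Ngfr was 0.22.

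Acta2, the partner of Tagln in contractile cells, leaned the other way at 1.51, 1.83 and 2.67 CPM in LDP females and 2.77, 1.30 and 2.99 in controls. The groups overlapped and the log2 change was -0.24 (SE 0.339), or -0.53 to -0.02 with 1 mouse left out. Reln was at 121.9, 101.3 and 124.1 CPM against 72.9, 117.4 and 108.4, where control female 29 was the lowest and control female 30 lay within the LDP range. Pdgfra (11.3 ± 2.48 against 9.02 ± 1.63 CPM, log2 change 0.32, SE 0.186, or 0.13 without LDP female 54) and Rgs5 (23.6 ± 9.42 against 20.6 ± 4.61) overlapped between groups. So did Des (5.18 ± 0.279 against 5.46 ± 0.419), Hand2 (7.54 ± 0.716 against 7.75 ± 0.593) and Hgf (18.3 ± 1.90 against 17.4 ± 3.19). Across members, LDP female 54 was the highest of the 6 in 6 of 10 and control female 29 the lowest in 6. Without LDP female 54 the members' median change was 0.10, and without control female 29 it was 0.05.

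**Figure D3:**
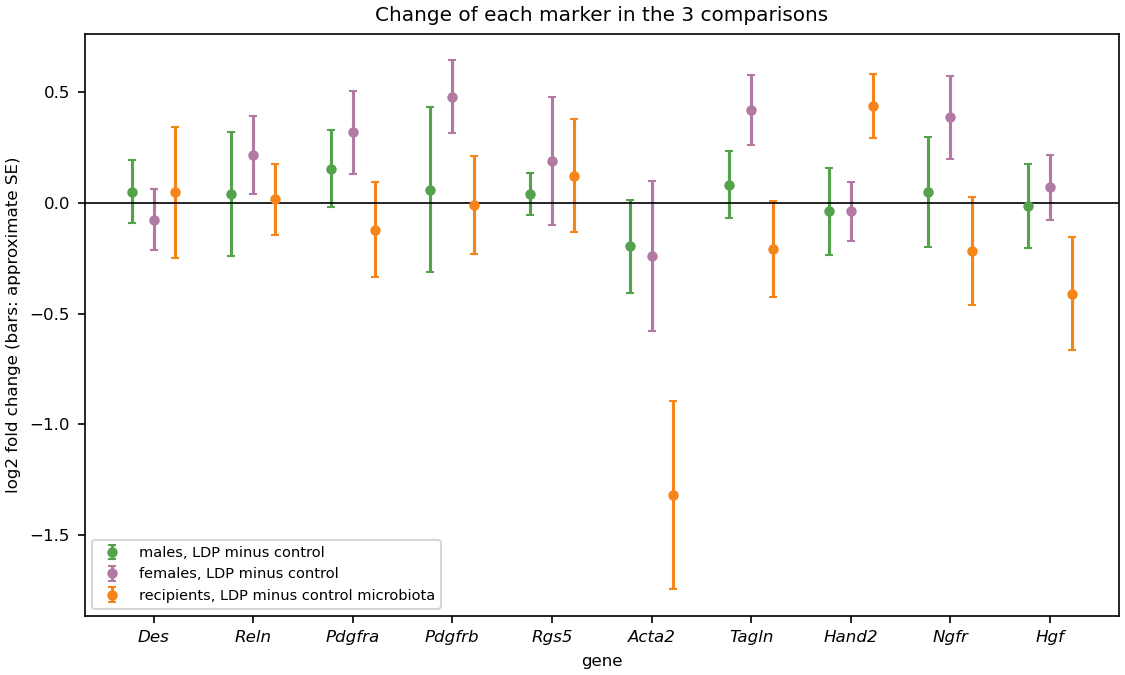
Log2 change of each marker in the 3 comparisons, LDP or LDP-microbiota minus control, as a point with a bar of 1 SE on either side, from edgeR. Male values lie near 0, Pdgfrb, Tagln and Ngfr are at 0.48, 0.42 and 0.39 in females, and Acta2 is at -1.32 in recipients.

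Genes listed for stellate cell activation stood higher in LDP females, with 15 of 17 tested above 0 and a median log2 change of 0.59. In edgeR 14 were higher at an unadjusted p under 0.05 and 13 were higher without overlap, though 0 passed. Over all genes, 2.69% and 4.97% were higher by these 2 measures. Acta2, a myofibroblast gene that is not on this list, had a log2 change of -0.24 in the same females. Col3a1, a fibrillar collagen chain, was at 96.8 ± 11.8 against 45.2 ± 6.46 CPM (log2 change 1.10, SE 0.134, edgeR adjusted p 0.206). Col1a2, a chain of type I collagen, was at 38.9 ± 6.23 against 23.0 ± 1.27 CPM (log2 change 0.76, edgeR adjusted p 0.591). The mean log2 deviation of that list was 0.44 to 0.75 in the LDP females and -0.06 to 0.02 in controls, so each LDP female lay above each control. The list's median stayed between 0.50 and 0.68 when any 1 of the 6 females was left out. Among 17 other quiescent stellate cell genes, 14 were higher with a median of 0.07, 3 of them at an unadjusted p under 0.05. They included the collectin Colec11 at 58.3 ± 6.61 against 46.6 ± 2.07 CPM, without overlap. Another was the haem protein Cygb, at 11.2 ± 2.34 against 8.14 ± 0.988 CPM, with overlap (edgeR adjusted p 0.999 for each). The vitamin A gene Lrat, added after its values were seen, was at 33.0 ± 1.22 against 26.6 ± 4.56 CPM. Its LDP levels in males and in recipients are not given here, so no pattern is read from it.

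Markers of other mesenchymal and surface cells leaned higher in LDP females, except those of vascular smooth muscle, and 0 passed. Other pericyte markers were higher in 6 of 6 tested, with a median log2 change of 0.20. Of these, 0 were at an unadjusted p under 0.05 and 1, Mcam, was without overlap. Their mean log2 deviation was -0.06, -0.11 and 0.69 in LDP females 39, 52 and 54, and -0.28 to 0.17 in controls. Only LDP female 54 thus lay above the controls. All 5 mesothelial genes tested were higher, with a median log2 change of 1.34 and 3 at an unadjusted p under 0.05. The 7 matched summed to 9.14 to 24.2 CPM in LDP females and 5.84 to 6.92 in controls. Msln was at 3.46 ± 2.21 against 1.33 ± 0.245 CPM and Upk3b at 3.63 ± 2.02 against 1.26 ± 0.172. Of portal fibroblast genes 7 of 8 were higher, with 4 at an unadjusted p under 0.05 and 1 without overlap, and the 11 on the list summed to 24.9 to 32.7 against 20.05 to 22.9 CPM. Their defining markers were Thy1 (1.48 ± 0.143 against 1.77 ± 0.447 CPM) and Eln (5.24 ± 1.06 against 3.64 ± 0.780 CPM). Vascular smooth muscle genes were higher in 2 and lower in 3 of 5 tested (median -0.10), with sums of 120 to 138 against 120 to 153 CPM. Whether these cells had a part in Pdgfrb, Tagln and Ngfr, or in the activation genes, was not tested.

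**Figure D4:**
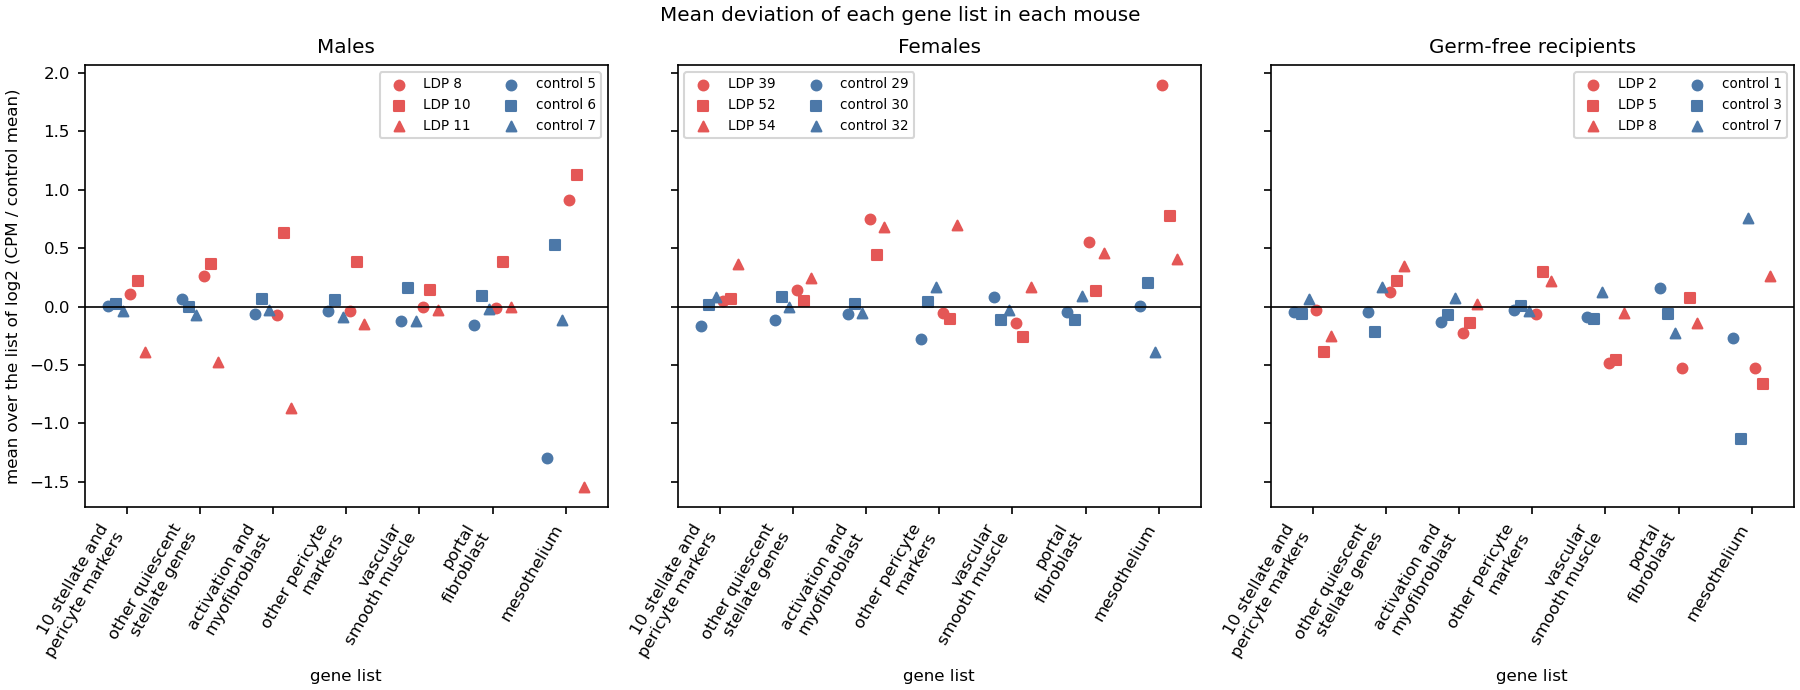
Mean log2 deviation from the control mean of the marker set and of the related gene lists in each mouse, for the genes of each list counted in all 6 libraries of a comparison. Each point is 1 mouse. For activation genes LDP males 8, 10 and 11 are at -0.07, 0.63 and -0.87, while LDP females are at 0.44 to 0.75 against -0.06 to 0.02 in controls.

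In recipients, the comparison asks whether microbiota of LDP mice, without the drug, alters the liver of the new host. Acta2 was lower and Hand2 higher in every recipient of LDP microbiota than in every control, and neither passed. Of 10 members 4 were higher and 6 lower, with a median log2 change of -0.06 beside -0.01 over all 12780 genes, of which 48.4% were above and 51.6% below 0. At an unadjusted p under 0.05, 1 member was higher and 1 lower, against 2.25% and 2.86% of all genes. In edgeR 0.00782% of genes passed as higher and 0% as lower. In DESeq2 the shares were 0.0754% and 0.0348% of 17248 genes, with 0 members in either tool. The groups did not overlap in 1 member on the higher and 1 on the lower side, against 6.13% and 5.56% of all genes.

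Acta2 had 21, 4 and 17 counts in LDP-microbiota recipients 2, 5 and 8, or 0.94, 0.22 and 0.62 CPM. In control-microbiota recipients 1, 3 and 7 it had 28, 41 and 29 counts, or 1.39, 1.83 and 1.34 CPM. Every LDP-microbiota recipient was below every control, and recipient 5 was the lowest by far. The log2 change was -1.32 (SE 0.425, unadjusted p 0.0125, edgeR adjusted p 0.846). It ran from -1.77 to -0.97 when any 1 mouse was left out, and stood at the latter without recipient 5. At counts this low, counting error adds to the spread between mice. The muscle actin paralogs Acta1, Actc1 and Actg2, whose coding sequences are close to that of Acta2, had at most 4, 8 and 16 counts in any library of the series. The cytoskeletal Actb was at 257 ± 65.7 against 170 ± 7.41 CPM, a log2 change of 0.60 (SE 0.175, edgeR adjusted p 0.846) with no overlap, in the direction opposite to Acta2.

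Hand2 was at 9.63, 8.67 and 8.42 CPM in LDP-microbiota recipients and at 6.17, 6.82 and 6.74 in controls. The groups were apart, with a log2 change of 0.44 (SE 0.146, unadjusted p 0.0149, edgeR adjusted p 0.846) that ran from 0.38 to 0.48 with any 1 mouse left out. Hand2 overlaps the antisense gene Hand2os1, which was not used here, and their reads cannot be told apart without strand. Tagln was at 4.03, 3.01 and 4.87 CPM against 4.13, 4.77 and 4.94, so recipient 5 was lowest here as for Acta2, but recipient 8 lay within the controls (log2 change -0.21, SE 0.216, or -0.05 without recipient 5). Tagln overlaps Pcsk7 on the other strand, a protease gene at a higher level, 29.3 ± 1.93 against 31.0 ± 2.12 CPM in these mice. The log2 change of Pcsk7 was -0.08 here, 0.01 in LDP females and -0.14 in LDP males. The part of Pcsk7 reads in the Tagln counts was not tested. Hgf was at 15.9, 14.05 and 8.16 CPM against 19.0, 13.0 and 18.5, a log2 change of -0.41 (SE 0.255), with recipient 8 below all others. It was -0.17 without recipient 8 and ran from -0.61 to that value with any 1 mouse left out. The remaining members overlapped: Reln (96.7 ± 16.3 against 95.7 ± 14.99 CPM), Pdgfrb (6.70 ± 1.75 against 6.76 ± 1.11), Pdgfra (8.19 ± 1.56 against 8.92 ± 2.14), Ngfr (5.09 ± 1.34 against 5.90 ± 1.18), Rgs5 (28.6 ± 9.12 against 26.2 ± 5.08) and Des (4.57 ± 1.64 against 4.45 ± 1.19).

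Genes of vascular smooth muscle, which share Acta2 and Tagln with stellate cells, were compared in the same livers. Of 5 tested, 2 were higher and 3 lower, with a median log2 change of -0.36. At an unadjusted p under 0.05 in edgeR were 3 lower and 1 higher, against 2.86% and 2.25% of all genes. The groups did not overlap in 2 on the lower side, Myh11 and Mylk, and in 1 on the higher side. Myh11 and Mylk are named as the 2 of smallest p, and the higher gene is not reported here, so they do not stand for the list. The 10 listed genes summed to 103 to 122 CPM in LDP-microbiota recipients and 124 to 152 in controls, with no overlap, and Mylk supplied most of each sum. Weighting genes equally, the mean log2 deviation was -0.48, -0.46 and -0.06 in recipients 2, 5 and 8 and -0.11 to 0.12 in controls, so recipient 8 lay among the controls. Myh11, smooth muscle myosin, was at 1.66, 1.399 and 1.24 CPM in recipients 2, 5 and 8 and at 3.03, 2.496 and 1.80 in recipients 1, 3 and 7 (log2 change -0.77, edgeR adjusted p 0.846). Mylk, the myosin light chain kinase, was at 111.3, 97.7 and 86.6 CPM against 129.3, 112.1 and 137.9 (log2 change -0.36, edgeR adjusted p 0.846), so its groups were barely apart. The part of smooth muscle cells in the Acta2 value was not tested.

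**Figure D5:**
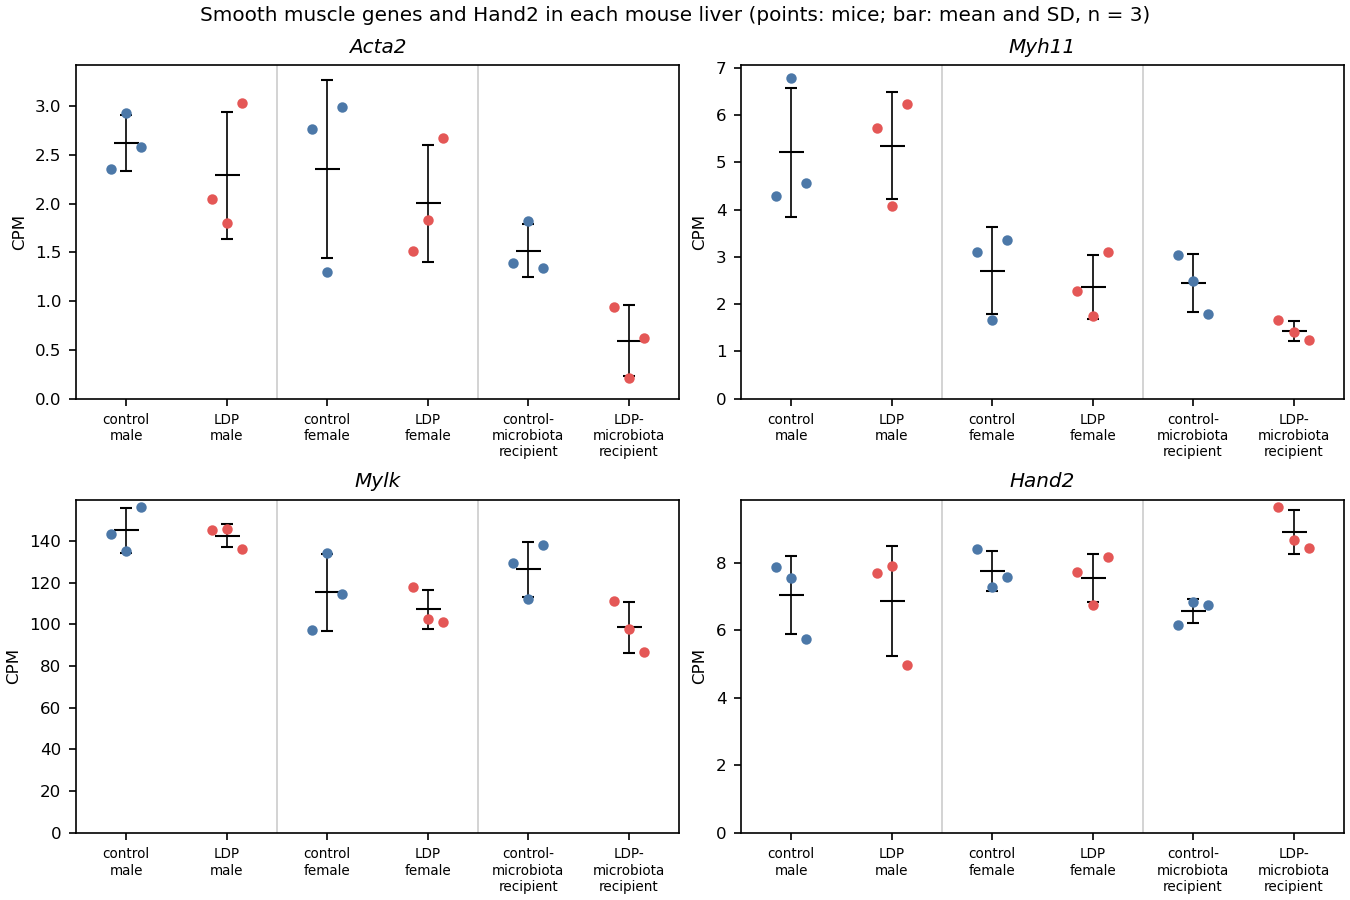
Levels of Acta2, Myh11, Mylk and Hand2 in each mouse, in TMM-scaled CPM on an axis that starts at 0, with the mean and SD of each group of 3 as bars. In recipients Acta2, Myh11 and Mylk are lower, and Hand2 higher, in every LDP-microbiota mouse than in every control-microbiota mouse, while the male and female groups overlap in all 4 genes. Of the 5 vascular smooth muscle genes tested in recipients, 1 that is not plotted was higher without overlap.

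Quiescent stellate cell genes leaned the other way in recipients: 15 of 17 were above 0 with a median log2 change of 0.14, 4 at an unadjusted p under 0.05 and 5 without overlap. Pth1r, a parathyroid hormone receptor, was at 10.7 ± 2.11 against 6.54 ± 0.953 CPM and Angptl6, a secreted angiopoietin-like protein, at 16.3 ± 3.73 against 9.30 ± 2.34 (edgeR adjusted p 0.846 for each). Activation genes were higher in 7 and lower in 9 of 16, with a median of -0.05. At an unadjusted p under 0.05, 2 were higher and 2 lower, and 1 higher and 2 lower were without overlap. The 19 on the list summed to 213 to 265 CPM in LDP-microbiota recipients and 210 to 220 in controls. The collagen chain Col6a3, among the lower, was at 4.49 ± 0.598 against 6.35 ± 0.255 CPM. Among other pericyte markers Rgs4, a relative of Rgs5, was at 4.59 ± 1.41 against 2.22 ± 0.719 CPM, while the potassium channel subunit Abcc9 was at 27.7 ± 2.32 against 35.4 ± 2.85 CPM. These groups were separate in opposite directions. Portal fibroblast genes were lower in 5 of 8 tested, including elastin (Eln, 1.77 ± 0.240 against 2.82 ± 0.550 CPM) and Dpt (3.11 ± 0.633 against 4.44 ± 0.491). Hepatocyte markers summed to 158985 to 188536 CPM in LDP-microbiota recipients against 120090 to 157855 in controls, while their mean log2 deviations overlapped (0.01 to 0.26 against -0.26 to 0.14). Schwann cells can also express Ngfr. Their 7 markers summed to 2.26 to 2.83 CPM in recipients, with Cdh19 at 0 in all 6. In females they summed to 2.57 to 3.74 CPM with LDP and 2.41 to 3.16 in controls. The part of Schwann cells in the Ngfr values was not tested.

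The difference between the LDP effects in males and in females was tested for each member over the gene names in both tables. None passed (edgeR adjusted p 0.9999 for each), and 0 had an unadjusted p under 0.05, against 1.22% of genes above 0 and 1.48% below. The most negative differences, males minus females, were -0.43 for Pdgfrb (SE 0.429), -0.35 for Ngfr (SE 0.339) and -0.34 for Tagln (SE 0.228). An SE of this size leaves differences of either sign possible. Sex also cannot be told apart here from the separate count tables and the deeper male libraries. The difference between treated females and recipients was above 0 in 8 of 10 members, and 0 passed (edgeR adjusted p 0.788 to 0.983). At an unadjusted p under 0.05 were Tagln, at 0.61 (SE 0.264, unadjusted p 0.0375), and Hand2, at -0.49 (SE 0.178, unadjusted p 0.0163), against 2.95% of genes above 0 and 2.99% below. For Acta2 it was 1.07 (SE 0.575, unadjusted p 0.0863). The 2 female experiments have no samples in common, but strain and experiment cannot be told apart from the route of exposure.

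The partners of these markers were measured in the same livers. Of the ligands of the PDGF receptors, Pdgfd was at 2.90 ± 0.382 against 2.17 ± 0.375 CPM in males (log2 change 0.42, unadjusted p 0.0440, edgeR adjusted p 0.920). Pdgfa was at 2.42 ± 0.390 against 1.90 ± 0.420 in females and 1.63 ± 0.419 against 2.17 ± 0.969 in recipients. Among 4 ligands, 1 was at an unadjusted p under 0.05 in males and 0 in females and in recipients. The HGF receptor and activation list had 0 of 8, 0 of 7 and 0 of 7 at that level in males, females and recipients. The activator Hgfac was at 221 ± 51.9 against 177 ± 25.1 CPM in recipients. The reelin receptor Vldlr varied more between mice than between groups, at 20.8 ± 17.7 against 13.2 ± 6.35 CPM in recipients. Of the neurotrophins and their other receptors 0 of 7, 0 of 5 and 0 of 5 were at an unadjusted p under 0.05, and Ntrk2 was at 12.9 ± 13.7 against 6.82 ± 2.97 CPM in females. Of the transcription factors of stellate and smooth muscle cells, Mef2c was at 5.35 ± 0.958 against 4.03 ± 0.361 CPM in males with no overlap (log2 change 0.41). Mrtfb, a cofactor of serum response factor, was at 19.9 ± 2.58 against 25.2 ± 2.52 CPM in recipients with no overlap (log2 change -0.34, edgeR adjusted p 0.846).

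Pairs of members with related roles were compared across the 6 libraries of each comparison, 12 relations in all, by exact two-sided permutation tests. Reln and Hgf had a Pearson r of 0.93 in males (exact p 0.0222, adjusted 0.133) with a Spearman rho of 0.89 (exact p 0.0333, adjusted 0.308). Leaving out LDP males 10 and 11, the farthest in Reln, gave an r of 0.98. Their r was 0.64 in females and 0.58 in recipients, and -0.13 and 0.43 without the 2 farthest libraries. Pdgfra and Pdgfrb had an r of 0.86 in males and of 0.82 in females (exact p 0.0556 and 0.0167, adjusted 0.222 and 0.133), with rho 0.77 and 0.83. In females it was 0.55 without LDP female 54 and control female 29, and in recipients it was 0.41, or -0.10 without the 2 farthest. Without LDP males 8 and 11 the male r was 0.94. Acta2 and Tagln had an r of -0.68 in males (exact p 0.144), 0.28 in females and 0.78 in recipients (exact p 0.175), and without the 2 farthest libraries 0.20, -0.58 and 0.64. Rgs5 and Des had an r of 0.64 in males, -0.12 in females and -0.77 in recipients (exact p 0.186, 0.842 and 0.0972), and without the 2 farthest 0.70, -0.33 and -0.58. None of the 12 passed after adjustment, and libraries of 2 groups enter each.

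The genes most like Reln and Acta2 were sought among 13294 genes by the correlation of log2 CPM deviations from the group mean over the 12 female libraries, given as a description. Points in it share a library's depth and composition. For Reln the highest were Mbd5 (0.97), Mir568 (0.97), Golgb1 (0.96), Dync2h1 (0.94) and Col17a1 (0.94), and over the 6 males Mbd5, Golgb1 and Dync2h1 had 0.37, 0.57 and 0.11. None of them is a stellate cell marker in the lists used. The nearest member was Ngfr, at 0.83 in females and 0.81 in males. For Acta2 they were Plcb2 (0.92), Lig4 (0.92), Fbxo25 (0.91), Mypop (0.90) and Slc22a17 (0.87), with -0.29, -0.09, -0.60, 0.55 and -0.80 in males. Tagln, the nearest member to Acta2 in females (0.72), was at -0.67 in males. In males Reln ran with Pdgfra (0.97), Pdgfrb (0.95), Des (0.93) and Hgf (0.93) and opposite to Acta2 (-0.91), in the same 6 libraries that LDP males 10 and 11 spread apart.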

How the data were processed

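Liver RNA of 18 mice was sequenced, extracted with the RNeasy Mini Kit and prepared with TruSeq v2, per the labels' protocols. Named in the submitters' processing notes, without roles, are the mm10 genome, featureCounts 1.4.3-p1, HTSeq 0.5.3p9, STAR 2.3.0e and DESeq; strandedness and the treatment of reads that match several genes are not given in the sources used here. The authors deposited raw counts per gene, 1 column per mouse, in a table for males (38924 Ensembl IDs, 37607 with a symbol in GENCODE M21) and another for females (23337 symbols). The male table also holds the gene lengths in bases that the authors deposited, used for levels per kilobase in both sexes.

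Each comparison of 3 mice against 3 was fitted alone with edgeR 4.0.16 in R 4.3.3: filterByExpr (minimum count 10, minimum total 15), TMM scaling, the robust quasi-likelihood F test and Benjamini-Hochberg adjustment over all genes tested, with a threshold of 0.05. CPM uses TMM-scaled library sizes, values are mean ± SD over 3 mice, and standard errors (SE) of log2 changes were obtained from the F statistics. Differences of effects were interaction terms over names in both tables (20063) or over the female table. No pair of libraries of a group was a copy (18 pairs, chi-square per degree of freedom 13.5 to 94.0).

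The members, the gene lists and the tests were chosen with earlier results of these data known. All members are named; of other lists, passing genes or otherwise the 2 tested genes of smallest p per comparison, plus the first 2 genes of a cell type list. Lrat was added after its values were seen. A few genes chosen by this rule are not reported here but remain in the list counts. Alternatives were DESeq2 1.42.0, relative log expression and upper quartile scaling, no filter, a minimum mean of 1 CPM, sharing the spread over 12 libraries, and leaving out each mouse. The fits were checked on simulated data. That check changed only well-counted genes, and by more than most members differed, so it does not show how small changes or low counts fare.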

Additional observations from a re-analysis of the deposited data

How the results depend on the processing

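No paired analysis was possible because the labels name no cage, litter, donor or batch by which mice could be paired. The count of genes that pass was 1 in males, 0 in females and 1 in recipients. It was 42, 14 and 19 with DESeq2 and 2, 1 and 2 with no filter on low counts. With the spread shared over 12 libraries it was 0 in males and 3 in recipients. Leaving out 1 mouse gave 0 to 66 in males (66 without LDP male 11), 0 to 1 in females and 0 to 4 in recipients (4 without LDP-microbiota recipient 8). No member passed in any of the alternatives: over 13 settings the lowest adjusted p was 0.162 in males, 0.880 in females and 0.602 in recipients, and over 4 settings 0.999 and 0.778 for the differences of effects.

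The sign of the log2 change turned in at least 1 setting for 8 of 10 members in males, 3 in females and 5 in recipients, with 1 mouse left out unless stated. The male ranges were -0.047 to 0.18 for Des, -0.19 to 0.30 for Reln, -0.34 to 0.37 for Pdgfrb, -0.028 to 0.12 for Rgs5, -0.071 to 0.21 for Tagln, -0.17 to 0.15 for Hand2, -0.18 to 0.27 for Ngfr and -0.16 to 0.18 for Hgf. In females they were -0.18 to 0.38 for Rgs5, -0.10 to 0.034 for Hand2 and -0.060 to 0.20 for Hgf. In recipients they were -0.28 to 0.24 for Des, -0.12 to 0.15 for Reln, -0.24 to 0.10 for Pdgfra, -0.25 to 0.14 for Pdgfrb and -0.062 to 0.37 for Rgs5. Pdgfrb in recipients was also 0.0076 with upper quartile scaling and 0.0036 with the spread shared over 12 libraries. The difference of males minus females in Hand2 was 0.0026 with relative log expression and 0.0029 with DESeq2. The cause was not tested. Pdgfrb, Tagln and Ngfr in females and Acta2 and Hand2 in recipients kept their direction in all 13 settings. Acta2 in recipients rests on 4 to 41 counts a library, which limits its precision.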
